A study of Mus musculus with 91 samples.

Results

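The C/EBP (CCAAT/enhancer binding protein) genes described here are the 6 named for that family and chosen by name, Cebpa, Cebpb, Cebpd, Cebpe, Cebpg and Cebpz, among 23956 gene symbols measured in 91 single mouse bone marrow cells. All cells came from C57BL/6 mice with 1 R412X allele and 1 minus allele of Gfi1 (genotype Gfi1-R412X/- Irf8+/-), so every cell also carried 1 plus and 1 minus allele of Irf8, and no group with wild-type alleles was used here. The sort took cells negative for lineage markers and Sca-1, positive for CD117 and CD34, and high for CD16/32, which is the surface phenotype of granulocyte-monocyte progenitors. The labels divide them into 46 GMP cells and 45 CD11b+ GMP-P cells; CD11b, encoded by Itgam, is an integrin chain of maturing myeloid cells. The labels name neither the animals nor their age, so each population counts as 1 sample, the values below have no test, and SDs and intervals cover differences between cells or counting error only.

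C/EBP proteins are leucine zipper transcription factors that bind DNA as dimers, and they act in sequence during granulocyte formation. Cebpa is needed for the step from common myeloid progenitors to GMP. Cebpe acts later, when promyelocytes give way to myelocytes, and it is needed for the genes of secondary (specific) granules. Cebpb is known for emergency granulopoiesis under cytokine stimulation, Cebpd for induction by inflammatory signals and by G-CSF, and Cebpg lacks a classical activation domain and dimerizes with other bZIP factors. Cebpz shares the name, but it encodes a CCAAT-binding protein related to nucleolar ribosome assembly factors and has no leucine zipper, so it is kept apart below.

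Levels are given as log2(TPM + 1), where TPM, a share of all transcripts, is scaled for transcript length, so that levels can be compared between genes. The populations differed in how much was detected: 5294 ± 801 genes (SD, n = 46) were above 0 in a GMP cell and 4112 ± 953 (n = 45) in a CD11b+ GMP-P cell. The 50 highest genes held 27.3% and 48.9% of all TPM. Common genes, those above 0 in 50% or more of the cells in at least 1 population, had a median difference of -1.05 on the log2 scale. The members' differences are therefore set beside it below. The part of detection in the results was not tested beyond the alternatives named. The 14 CD11b+ GMP-P cells with low Elane, the gene of neutrophil elastase, had 3096 ± 510 genes above 0. They were treated as a class of their own (log2 under 9), beside 31 Elane-high CD11b+ GMP-P cells with 4571 ± 721. The highest value under that threshold was 8.79 and the lowest above it 9.74, and 3 cells lay within 1 of it. Of the 45 cells, 12 were under 5 and 5 lay within 2 of the threshold, so intermediate values fell on both sides. Of the GMP cells, 43 were Elane-high and 3 Elane-low. Those 3 held 1846 to 24458 summed TPM of 9 basophil, mast cell and eosinophil markers, against a median of 462 over all of GMP and 16.97 over CD11b+ GMP-P. The Elane-high GMP cells ran from 0.18 to 6992 TPM, so the classes overlapped. Some defining markers of erythroid, lymphoid and macrophage cells were absent: Klf1, Hbb-b1, Epor, Pf4, Cd79a, Cd3e, Il7r, Dntt, Ebf1, C1qa, C1qb, C1qc and Cd5l were listed at 0 in all cells. Other markers were present: the 9 monocyte markers summed to a median of 8241 TPM in GMP and 3562 TPM in CD11b+ GMP-P (Cx3cr1 at 0 in CD11b+ GMP-P), and the B cell receptor gene Cd79b had means of 3.75 ± 3.49 and 1.71 ± 3.03. The 7 macrophage markers summed to between 0 and 1675 TPM in GMP and between 0 and 619 TPM in CD11b+ GMP-P, with 7 and 11 cells at 100 TPM or more. Of 3 macrophage markers past the filter, 2 had means higher by 1 or more in CD11b+ GMP-P, Vcam1 and Slc40a1 (1.04), against 2.45% of all genes tested. The 8 erythroid and megakaryocyte markers reached 702 TPM in GMP and 562 TPM in CD11b+ GMP-P, with 3 and 1 cells at 100 TPM or more, and the 7 lymphoid markers 1143 and 554 TPM, with 14 and 6 cells. Their part in the results was not tested. Of the sorted surface genes, Itgam went with the label, with a mean of 3.68 ± 2.87 in CD11b+ GMP-P and 0.54 ± 1.37 in GMP. Ly6a, which encodes Sca-1, did not: its transcript had means of 5.51 ± 2.23 in GMP and 5.74 ± 1.59 in CD11b+ GMP-P although the sort took Sca-1 negative cells. Kit (CD117) and Cd34 had lower means in CD11b+ GMP-P, by -2.75 and -4.68. A transcript level cannot check the Gfi1 and Irf8 alleles, which all cells share. Gfi1 was above 0 in 42 GMP and 32 CD11b+ GMP-P cells, and Irf8 in 41 and 30.

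Cebpe had the largest difference in mean log2 level of the 6 members between the populations. As a log2 ratio of mean TPM its difference was 1.66, smaller in size than those of Cebpa (-2.01) and Cebpz (-1.69). Its level in GMP had a lowest value of 0, a median of 1.495 and a highest value of 7.60, and in CD11b+ GMP-P a lowest of 0, a median of 5.55 and a highest of 9.20. The populations overlapped over almost the whole range, but most GMP cells lay low and most CD11b+ GMP-P cells high. The means were 2.60 ± 2.86 and 5.22 ± 2.57 (SD), a difference of +2.62, or +3.67 relative to the common-gene median. That difference was higher than those of 99.7% of the 10030 genes tested. Cebpe was 1 of 6 members higher by 1 or more in CD11b+ GMP-P, a size reached by 246 genes or 2.45% of all tested, and Cebpa and Cebpz were 2 of 6 lower by 1 or more, as were 3002 genes or 29.9%. The Cebpe difference lay between 1.41 and 3.82 under the 8 alternatives. It was 2.16 when only Elane-high cells were compared, where 2.58% of 9965 genes were higher by 1 or more and 22.4% lower. It was 1.76 in the matched cells, which are the 26 GMP and 21 CD11b+ GMP-P cells with 3947 to 5645 genes above 0. These cells share a range of genes detected but were not paired, and the median of common genes there was still -0.44.

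**Figure D1:**
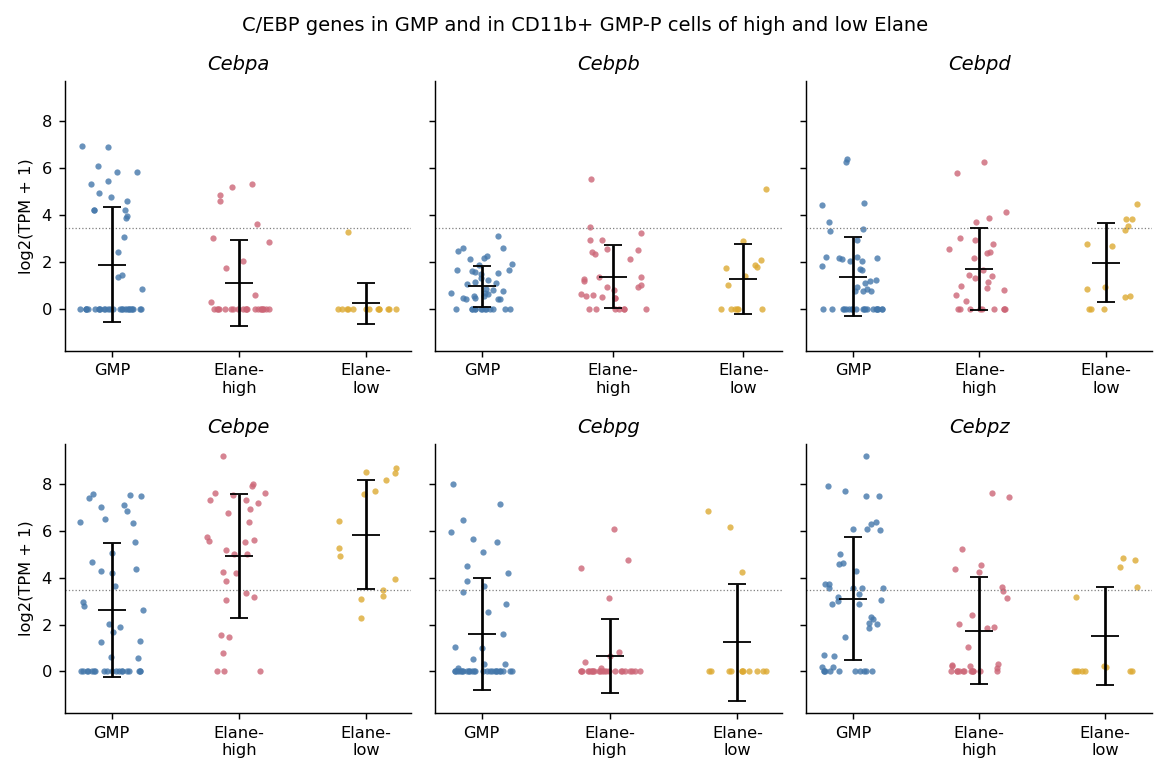
Levels of the 6 C/EBP genes as log2(TPM + 1), 1 point per cell, in 46 GMP cells and in the 31 Elane-high and 14 Elane-low CD11b+ GMP-P cells. Black bars give the mean and SD over cells, which is drawn below 0 where the SD exceeds the mean, and the dotted line marks 10 TPM. Cebpe lies above that line in 17 of 46 GMP cells, 22 of 31 Elane-high cells and 11 of 14 Elane-low cells.

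Detection gave the same picture. At a floor of 10 TPM, Cebpe was found in 17 of 46 GMP cells (37%, exact Clopper-Pearson interval at 95% from 23.2% to 52.5%) and in 33 of 45 CD11b+ GMP-P cells (73.3%, 58.1% to 85.4%). It was above 0 in 27 and 42 cells, and at 100 TPM or more in 7 and 17. The highest value was 192.61 TPM in GMP and 588.86 TPM in CD11b+ GMP-P. In the 14 Elane-low CD11b+ GMP-P cells Cebpe was above 0 in every cell, and in the 3 Elane-low GMP cells it was listed at 0.

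Cebpa, the factor of the step into GMP, was found in fewer CD11b+ GMP-P cells. It was at 10 TPM or more in 15 of 46 GMP cells (32.6%, 19.5% to 48.02%) and in 5 of 45 CD11b+ GMP-P cells (11.1%, 3.71% to 24.1%), all 5 of them Elane-high. The lowest and median log2 values were 0 in both populations, and the highest were 6.97 in GMP and 5.31 in CD11b+ GMP-P. Most cells of both populations were therefore listed at 0, and the difference lay in the minority of positive cells. The means were 1.88 ± 2.45 and 0.83 ± 1.63, a difference of -1.05, which equals the median of common genes to 2 decimals. The size of 1 was no longer reached in 4 of 8 alternatives, where it was -0.48 with a pseudocount of 10, -0.83 with median of ratios scaling, -0.62 in matched cells and -0.78 in Elane-high cells. The log2 ratio of mean TPM was larger, at -2.01. None of 14 Elane-low cells reached 10 TPM, which allows a share of up to 21.4%, taking 3 cells of the total as the limit for a count of 0 here and below.

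Cebpb and Cebpd, the factors linked to cytokine and inflammatory induction, were low in both populations. Cebpb was above 0 in 33 GMP and 32 CD11b+ GMP-P cells, but its median was 0.63 and 1 TPM. No GMP cell reached 10 TPM, which allows a share of up to 6.52%, and 3 CD11b+ GMP-P cells did. Its means of 0.95 ± 0.88 and 1.33 ± 1.37 differed by +0.38, less than the SD in either population, and the log2 ratio of mean TPM was 1.42. In CD11b+ GMP-P the highest value was 45.45 TPM. Cebpd ranged from 0 through a median of 0.79 to 6.38 in GMP and from 0 through 1.32 to 6.25 in CD11b+ GMP-P, so the groups overlapped fully. The Cebpd difference of +0.42 was also less than the SD, and it turned to -0.03 in matched cells. Over all cells both differences lay above the common-gene median of -1.05, and in matched cells that median was -0.44. At 10 TPM, Cebpd was found in 5 GMP and 9 CD11b+ GMP-P cells. Both genes overlap another gene on the opposite strand in the GENCODE annotation, Tmem189 and Spidr, and the libraries do not mark strand. The rho of Cebpb with Tmem189 was -0.13 in GMP and -0.25 in Elane-high CD11b+ GMP-P cells, and that of Cebpd with Spidr was -0.06 and 0.32.

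Cebpg, the bZIP partner without an activation domain, and Cebpz, the nucleolar family member, had lower means in CD11b+ GMP-P. Cebpg was at 10 TPM or more in 11 GMP and 6 CD11b+ GMP-P cells, with means of 1.60 ± 2.40 and 0.84 ± 1.92 and a difference of -0.77. That difference passed 1 with a pseudocount of 0.1 (-1.39), as a ratio of mean TPM (-1.19), in matched cells (-1.36) and in Elane-high cells (-1.06). Cebpz was the member with the highest mean in GMP, 3.11 ± 2.64, and had 1.67 ± 2.21 in CD11b+ GMP-P, a difference of -1.43. The common-gene median of -1.05 lay between the Cebpg and Cebpz differences. Cebpz was found at 10 TPM in 20 GMP and 11 CD11b+ GMP-P cells. In matched cells the Cebpz difference was -0.30, where the median of common genes was -0.44. With a pseudocount of 10 the Cebpz difference was -0.68 and with median of ratios scaling -0.96. The 12 measured nucleolar and NOC family genes, of the protein class that Cebpz belongs to, were lower by 1 or more in all 12 cases. Of all genes tested, 29.9% were. Their median was -2.70, against -0.50 over all genes tested and -1.05 over common genes. Cebpz overlaps Cebpzos on the opposite strand, and unstranded reads from a shared stretch cannot be assigned by strand. Whether the overlap includes exons was not examined. Cebpzos was at 10 TPM or more in 19 GMP and 7 CD11b+ GMP-P cells, and the rho of the pair was 0.15 in GMP. The highest Cebpz value, 586.77 TPM, was in a GMP cell with 18985 TPM of Cpa3, a mast cell protease, in which Cebpa, Cebpd, Cebpe and Cebpg were listed at 0.

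The order of the mean log2 levels thus differed between the populations. In GMP it ran from Cebpz (3.11) through Cebpe (2.60), Cebpa (1.88), Cebpg (1.60) and Cebpd (1.36) to Cebpb (0.95), and no neighbours in that order were further apart than their SD. In CD11b+ GMP-P it ran from Cebpe (5.22) through Cebpd (1.77), Cebpz (1.67), Cebpb (1.33) and Cebpg (0.84) to Cebpa (0.83). There the step from Cebpe to Cebpd exceeded the SD of both genes, and no other step did. By mean TPM, only neighbours changed places from GMP to CD11b+ GMP-P. Cebpe (33.9 and 107 TPM) passed Cebpz (43.3 and 13.4), and Cebpd (6.00 and 6.71) passed Cebpa (14.8 and 3.66).

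The composition within single cells was described over the 5 bZIP members, in cells where their TPM summed to 10 or more. The summed level had a median of 39.8 TPM in all GMP cells and 69.1 TPM in all CD11b+ GMP-P cells. Cebpe made up a median of 9.46% of the sum in 38 GMP cells and 87.1% in 39 CD11b+ GMP-P cells, with means of 36.2% ± 42.1 and 72.2% ± 31.8. It was the highest member in 15 of 38 GMP and 31 of 39 CD11b+ GMP-P cells. In the other GMP cells the highest member was Cebpa in 11, Cebpg in 7 and Cebpd in 5. In the other CD11b+ GMP-P cells it was Cebpa in 4, Cebpg in 2, and Cebpb and Cebpd in 1 each. GMP cells were thus divided among 4 leading members, and each cell mostly had 1: in GMP, 10 cells had no bZIP member at 10 TPM, 25 had 1, 10 had 2 and 1 had 3. The matching numbers in CD11b+ GMP-P were 8, 20, 15 and 2. In single cells a missed transcript is also listed at 0, so that a cell with 1 member may hold others.

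**Figure D2:**
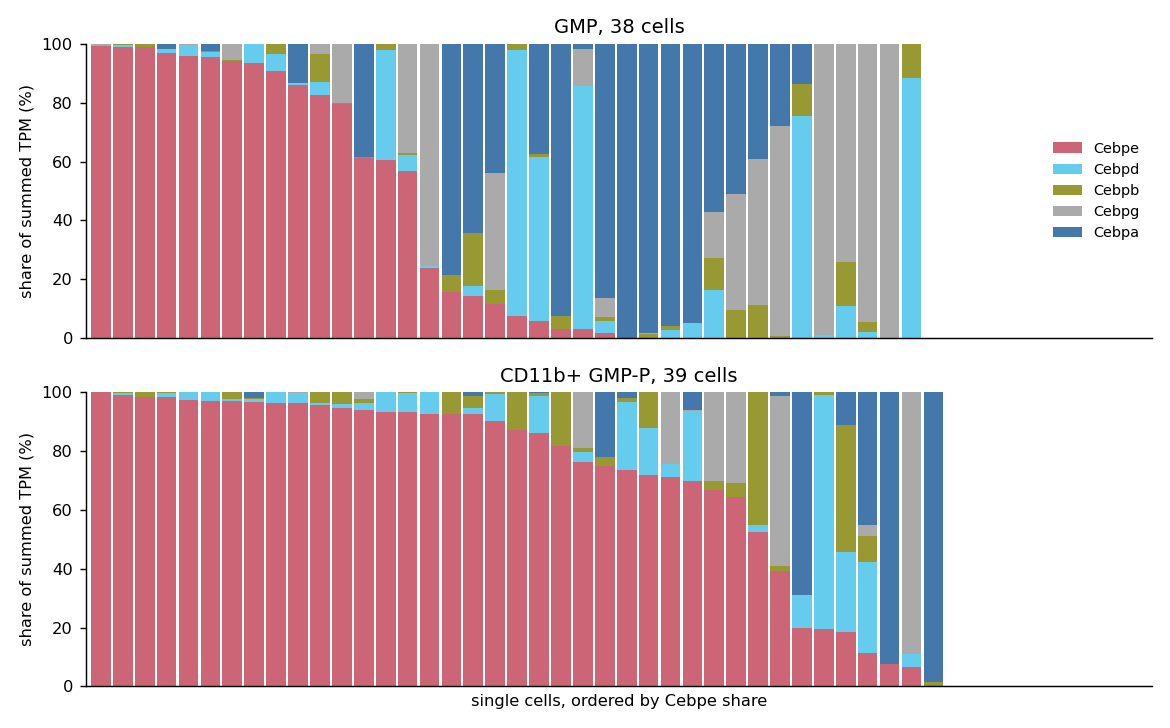
Share of each bZIP C/EBP gene in the summed TPM of the 5 in each cell with a sum of at least 10 TPM, 1 bar per cell, ordered by the share of Cebpe. Cebpe is the highest member in 15 of 38 GMP cells and in 31 of 39 CD11b+ GMP-P cells.

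Cebpa and Cebpe, the early and the late factor, were found together in few cells. In GMP, 3 cells had both at 10 TPM or more, 12 had Cebpa alone, 14 Cebpe alone and 17 neither. In CD11b+ GMP-P, 2 had both, 3 Cebpa alone, 31 Cebpe alone and 9 neither. The rank correlation (Spearman's rho) of the pair was weak, -0.15 over 46 GMP cells and -0.07 over 31 Elane-high CD11b+ GMP-P cells. Here and below, rho describes the cells of 1 sorted population, which share their source and differ in genes detected, and it has no p. In CD11b+ GMP-P, where 33 of 45 cells had Cebpe at 10 TPM, all 9 cells with Cebpd and all 3 with Cebpb at 10 TPM also had Cebpe, and 5 of 6 with Cebpg did. In GMP, where 17 of 46 cells had Cebpe at 10 TPM, 1 of 5 cells with Cebpd and 4 of 11 with Cebpg did. Among all 15 pairs of members, rho lay between -0.19 and 0.12 in GMP. In Elane-high CD11b+ GMP-P cells the highest values were 0.40 for Cebpg with Cebpz (Pearson's r 0.24) and 0.36 for Cebpd with Cebpe (0.33).

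**Figure D3:**
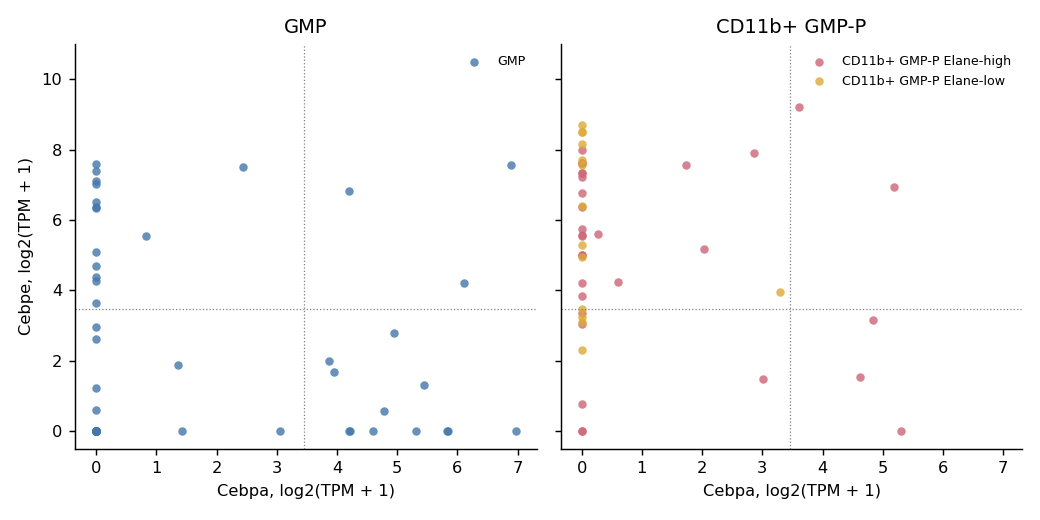
Cebpe against Cebpa in each cell, both as log2(TPM + 1), in GMP on the left and CD11b+ GMP-P on the right, with dotted lines at 10 TPM. Only 3 points on the left and 2 on the right lie above both lines, and most points lie along an axis.

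Within CD11b+ GMP-P, Cebpe was found in Elane-low as well as Elane-high cells. Its values ran from 0 through a median of 5.55 to 9.20 in the 31 Elane-high cells and from 2.29 through 5.84 to 8.69 in the 14 Elane-low cells, so the classes overlapped and only the Elane-high class held cells at 0. The means were 4.94 ± 2.65 and 5.84 ± 2.35. The difference of +0.90 for Elane-low minus Elane-high was less than the SD, while the median of common genes was -1.41. No member passed 1 in either direction, against 2.17% of 9214 genes higher and 38.3% lower. Scaled without the 50 highest genes of each cell, which held 67.1% of TPM in Elane-low cells and 40.7% in Elane-high cells, the Cebpe difference was 1.77, and with the Elane threshold at 11 or 7 it was 1.28 or 1.32. The Cebpa difference was -0.86 in the log2 mean, and the gene was above 0 in 1 of 14 Elane-low against 11 of 31 Elane-high cells. With the threshold at 11 its difference was -1.02 and as a ratio of mean TPM -3.01. The other members differed by -0.08 (Cebpb), +0.26 (Cebpd), +0.58 (Cebpg) and -0.23 (Cebpz), each less than its SD. As a ratio of mean TPM, Cebpg was at 1.89, Cebpz at -1.28 and Cebpd at -0.28. Cebpb turned to 0.19 without the 50 highest genes and Cebpz to 0.11 with the threshold at 7.

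The granule genes were taken as 3 lists: 10 primary granule genes, which promyelocytes make first, 20 secondary and late granule genes, and S100a8 and S100a9, the subunits of calprotectin. These genes differed between the populations in opposite directions, with 9 of 10 primary genes lower and 14 of 18 measured secondary and late genes higher by 1 or more in CD11b+ GMP-P, against 29.9% of all genes tested lower and 2.45% higher. Correlations were therefore computed within GMP, within Elane-high and within the 14 Elane-low CD11b+ GMP-P cells, and never over more than 1 of them. A gene counted as measured for a correlation when 50% or more of the cells of that class had a value above 0. A rho of 0.4 or more in size was counted, and the share of all measured genes that reached it is given beside each count.

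Among the genes of the 3 granule lists, Cebpe in GMP had its highest rho values with Serpinb1a, S100a8, Elane and Pglyrp1. The coefficient was 0.50 with Serpinb1a, an inhibitor of granule proteases, 0.44 with Elane, 0.39 with Mpo (myeloperoxidase) and 0.35 with Prss57, another granule serine protease. Of the 10 primary genes, 2 reached 0.4 and 8 were positive, with a median of 0.19 against 0.01 over 4999 genes, of which 0.52% reached 0.4 and 0.4% reached -0.4. Among 13 measured secondary and late genes only Pglyrp1, a peptidoglycan recognition protein, reached 0.4 (0.41), and the median was 0.16. Some of these genes were low in GMP, with Ltf at 1.61 at most and a Camp median of 3.38 on the log2 scale. Low values can come from other cells of the run, which was not tested, and this limits their rho in GMP here and below. S100a8 had 0.48 and S100a9 0.24. Gfi1 itself had a rho of 0.43 with Cebpe, and 16 of 17 cells with Cebpe at 10 TPM had Gfi1 at 10 TPM, against 20 of 29 other cells. The number of genes detected was unrelated to Cebpe here (rho 0.01). In the 43 Elane-high GMP cells the rho was 0.37 with Elane, 0.36 with Gfi1 and 0.34 with Pglyrp1, all under 0.4.

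In Elane-high CD11b+ GMP-P cells, Cebpe went with secondary granule genes and against most primary ones. Of 14 measured secondary and late genes 13 were positive and 7 reached 0.4, against 1.2% of 3922 genes. They were Pglyrp1 (0.61), Chil3, a chitinase-like protein (0.54), Lcn2, the iron-sequestering lipocalin (0.54), Ngp, neutrophilic granule protein (0.53), Camp, the cathelicidin precursor (0.50), and Cd177 and 1100001G20Rik (Wfdc21), each at 0.41. S100a9 had 0.58 and S100a8 0.55. The median of the secondary and late list was 0.38 against -0.15 over all genes. Of the 10 primary genes 5 were at -0.4 or lower, as were 13.2% of all genes: Ctsc, which activates the granule proteases (-0.56), Ctsg, cathepsin G (-0.47), Mpo and Elane (each -0.45), and Srgn, the granule proteoglycan (-0.42). Serpinb1a was the exception at 0.65, and its rho was positive in GMP too. The class was cut on Elane, which limits the range of Elane within it, and the difference in sign between the populations was not tested. In the 14 Elane-low CD11b+ GMP-P cells the Cebpe pattern was not seen: the median rho was -0.08 with 14 secondary and late genes, 6 of them positive, and -0.13 with calprotectin, against -0.06 over 2511 genes. The difference between the Elane classes was not tested either.

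The number of genes detected moved with these values. The rho of Cebpe with the number of genes detected was -0.63 in the Elane-high CD11b+ GMP-P cells, and cells with Cebpe at 10 TPM or more had 4327 ± 664 genes (SD, n = 22) against 5167 ± 478 in the other 9. With that number held constant (partial rho), the list medians were 0.20 for secondary and late genes, 0.34 for calprotectin and -0.06 for primary genes, against -0.01 over all genes. Serpinb1a (0.62), Pglyrp1 (0.51), Ngp (0.40) and Ctsc (-0.58) stayed at 0.4 or more in size. The other counted primary genes were between -0.11 and -0.0048, Camp was at 0.35, S100a9 at 0.35, S100a8 at 0.33, Lcn2 at 0.31, Chil3 at 0.28, and Cd177 and 1100001G20Rik each at 0.25. In the 21 matched Elane-high cells, the calprotectin median was 0.41.

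**Figure D4:**
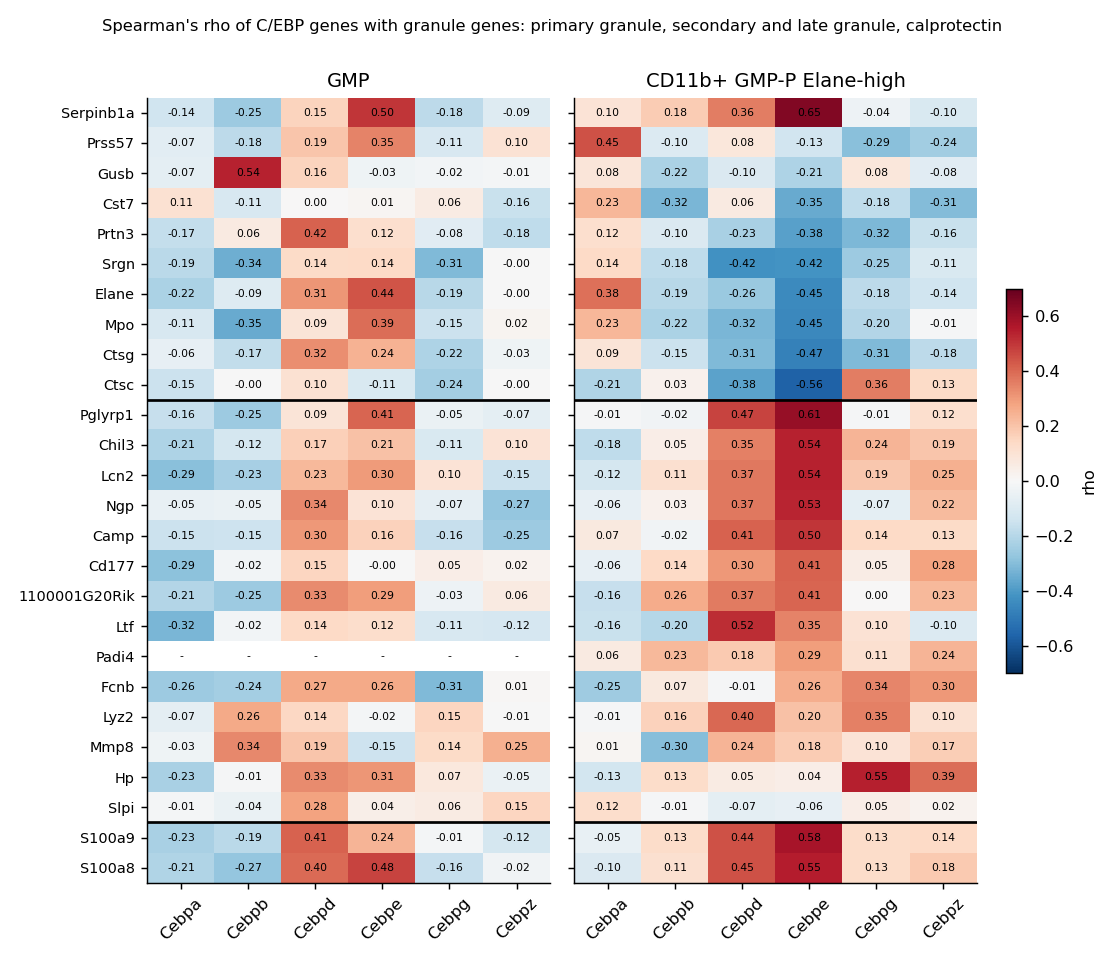
Spearman's rho of each C/EBP gene with the granule genes over 46 GMP cells on the left and 31 Elane-high CD11b+ GMP-P cells on the right. Black lines separate primary, secondary and late, and calprotectin genes, and a dash marks a gene not measured in that class. On the right, the Cebpe column is red for all secondary and late genes but Slpi and blue for all primary genes but Serpinb1a, with medians of 0.38 and -0.40.

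Cells were also counted on both sides of 10 TPM of Cebpe. Camp reached 1000 TPM in 13 of 22 Elane-high CD11b+ GMP-P cells with Cebpe at 10 TPM or more and in 0 of the 9 others, which allows a share of up to 33.3%. Ngp did so in 12 and 0 cells and Ltf, lactoferrin, in 5 and 0. As 22 of all 31 cells lay on the first side, 5 Ltf cells are too few to tell the sides apart. The share of all genes with such a split was not computed. The sides also differed in genes detected (4327 ± 664 and 5167 ± 478, SD). Camp ran from 2.86 through a median of 13.2 to 16.3 on the log2 scale in the first set and from 2.68 through 3.66 to 9.44 in the second. The sets overlapped up to 9.44, and every value above that was in a cell with Cebpe at 10 TPM or more. In the 21 matched cells, the counts were 8 of 14 and 0 of 7. With a Camp floor of 100 TPM they were 16 of 22 and 2 of 9, and with Cebpe split at 0 they were 13 of 28 and 0 of 3. The 14 Elane-low CD11b+ GMP-P cells did not show this split: Camp was at 1000 TPM or more in all of them, and the 3 with Cebpe under 10 TPM also had Ngp and Ltf at 1000 TPM or more. The Camp means there were 15.7 ± 0.41 with Cebpe and 15.6 ± 0.35 without. Over all CD11b+ GMP-P cells, Camp reached 1000 TPM in 24 of 33 cells with Cebpe and 3 of 12 without. In GMP no cell reached 1000 TPM of Camp with or without Cebpe, although Camp was above 0 in all 46 GMP cells with a median of 9.42 TPM.

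A 250-base window before the RefSeq start was searched for the 8-base C/EBP core TTGCNNAA on either strand (that is, TTGCNNAA or TTNNGCAA) in 29 of 38 genes of the granule lists and the family that have an entry in the RefSeq promoter table (GRCm38.p6). The letters were found for 8 of 16 secondary and late genes, 1 of 2 calprotectin genes and 0 of 8 primary genes, against 10.8% of 27025 gene symbols in that table. The 3 members with an entry, Cebpa, Cebpb and Cebpg, had no match. The matches lay in Ngp (2), Fcnb (2), Ltf, Lcn2, Mmp8, Ptx3, Slpi, Retnlg and S100a9. Camp, Chil3, Pglyrp1, Cd177 and S100a8, which had a counted positive rho with Cebpe in Elane-high CD11b+ GMP-P cells, had no match in this window. Slpi, the only measured secondary and late gene without a positive rho there, had a match. A relation between matches and rho was not tested. A match is a description of the window and not a bound site. The windows of Ngp, Ltf, Lcn2 and S100a9 are shown because these genes had counted correlations with Cebpe or Cebpd and hold the letters, and that of Elane because its rho with Cebpe was negative in Elane-high CD11b+ GMP-P cells (-0.45), although it was 0.44 in GMP. All are 5′ to 3′ on the gene's strand, ending at the base before the start, with the matches in capitals. They lie at chr9:110419558-110419807 (plus strand), chr9:111019042-111019291 (plus), chr2:32387740-32387989 (minus), chr3:90695722-90695971 (minus) and chr10:79886062-79886311 (plus). The matches begin 138 and 11 bases before the start of Ngp, 75 before that of Ltf, 216 before that of Lcn2 and 236 before that of S100a9.
Ngp: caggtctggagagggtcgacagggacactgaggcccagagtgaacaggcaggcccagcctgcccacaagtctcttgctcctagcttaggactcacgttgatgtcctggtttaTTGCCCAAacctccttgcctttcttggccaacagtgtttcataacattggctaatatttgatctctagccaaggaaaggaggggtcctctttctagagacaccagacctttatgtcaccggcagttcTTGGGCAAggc
Ltf: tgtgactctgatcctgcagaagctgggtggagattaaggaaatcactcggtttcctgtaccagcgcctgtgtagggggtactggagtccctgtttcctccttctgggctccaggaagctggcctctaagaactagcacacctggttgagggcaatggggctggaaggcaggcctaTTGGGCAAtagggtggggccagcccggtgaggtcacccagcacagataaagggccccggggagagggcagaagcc
Lcn2: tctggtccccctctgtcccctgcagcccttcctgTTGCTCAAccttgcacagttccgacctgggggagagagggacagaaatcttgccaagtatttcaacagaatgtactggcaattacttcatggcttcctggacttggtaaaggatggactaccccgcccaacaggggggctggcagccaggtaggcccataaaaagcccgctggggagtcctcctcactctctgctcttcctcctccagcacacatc
S100a9: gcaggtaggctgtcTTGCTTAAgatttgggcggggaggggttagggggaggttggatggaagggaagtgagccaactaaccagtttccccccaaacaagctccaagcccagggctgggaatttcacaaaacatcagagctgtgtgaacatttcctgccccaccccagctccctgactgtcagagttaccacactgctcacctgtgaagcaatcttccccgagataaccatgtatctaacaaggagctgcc
Elane: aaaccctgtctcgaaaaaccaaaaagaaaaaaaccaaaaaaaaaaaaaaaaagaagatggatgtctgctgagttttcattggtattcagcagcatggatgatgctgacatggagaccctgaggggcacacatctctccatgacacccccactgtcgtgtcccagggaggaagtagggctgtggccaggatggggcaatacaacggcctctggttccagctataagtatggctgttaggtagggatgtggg

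Irf8, the monocyte and dendritic cell factor carried here with 1 minus allele, had the opposite order to Cebpe in 1 class. In the 31 Elane-high CD11b+ GMP-P cells its rho with Cebpe was -0.73 (Pearson's r -0.66), and it stayed between -0.77 and -0.60 under 5 alternatives, among them -0.60 with genes detected held constant. Irf8 ran from 3.84 through a median of 515.94 to 766.69 TPM in the 9 cells with Cebpe under 10 TPM, and from 0 through 0.095 to 434.89 TPM in the 22 with Cebpe at 10 or more. At 10 TPM it was found in 8 of 9 and in 7 of 22 cells, so that 15 cells had Cebpe alone, 8 Irf8 alone, 7 both and 1 neither. In matched cells the counts were 6 of 7 and 5 of 14. In GMP the rho was -0.12, and Irf8 was at 10 TPM in 11 of 17 cells with Cebpe and in 24 of 29 without. Other regulators in the Elane-high CD11b+ GMP-P cells were Id2, an inhibitor of bHLH factors, at 0.54 and Myb, a factor of immature progenitors, at -0.44. Of 9 measured nucleolar genes 6 had a rho of -0.4 or lower with Cebpe, as did 13.2% of all genes, and their median was -0.49, or -0.25 with genes detected held constant.

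**Figure D5:**
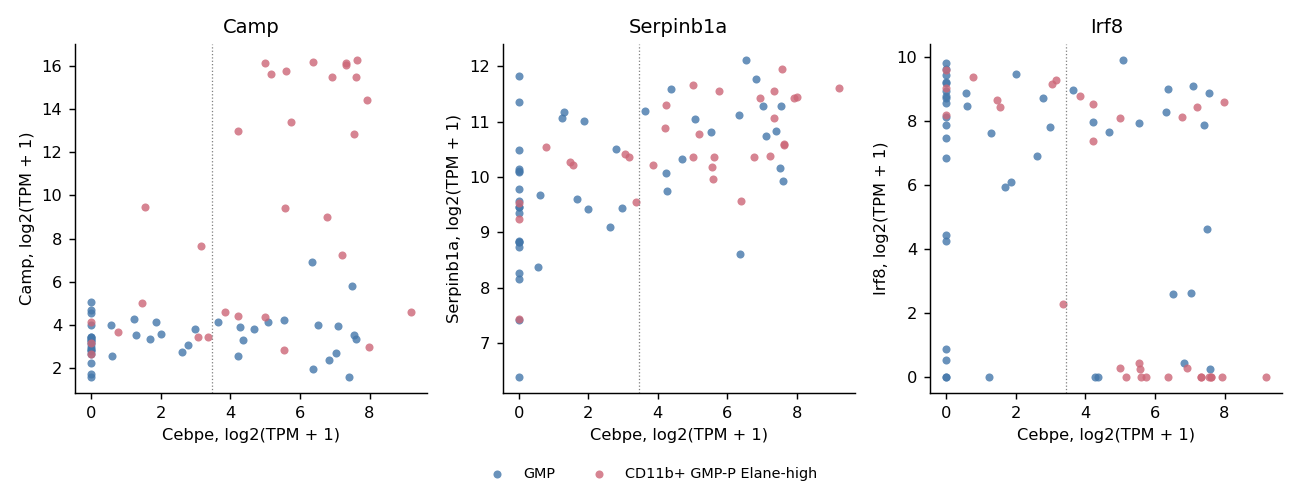
Camp, Serpinb1a and Irf8 against Cebpe, all as log2(TPM + 1), 1 point per cell, in 46 GMP cells (blue) and 31 Elane-high CD11b+ GMP-P cells (red), with a dotted line at 10 TPM of Cebpe. Red points with Camp at 1000 TPM or more all lie to the right of the line (13 of 22 cells), and the red points with Irf8 at 0 lie there too.

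Of the other members, Cebpd came closest to the Cebpe pattern. In Elane-high CD11b+ GMP-P cells its median rho was 0.36 with secondary and late genes, 4 of 14 of which reached 0.4, against 1.15% of all genes. These were Ltf (0.52), Pglyrp1 (0.47), Camp (0.41) and Lyz2, lysozyme (0.40), and S100a8 and S100a9 had 0.45 and 0.44. Among primary genes, Srgn alone was at -0.4 or lower (-0.42), against 4.41% of all genes. In matched cells the secondary median was 0.11, and the rho with Camp was 0.20. Of these genes, only Ltf stayed at 0.4 or more in all 5 alternatives (0.45 to 0.55). Lyz2 was lower in all 5 (0.28 to 0.39), Camp stayed in 1, Pglyrp1 in 3, and S100a8 and S100a9 in 2 each, with lowest values of 0.22 and 0.20. In GMP, Cebpd was positive with all 13 measured secondary and late genes (median 0.23, none at 0.4) and all 10 primary genes (median 0.16), and it reached 0.4 with Prtn3, proteinase 3 (0.42), and S100a9 (0.41), where 0.94% of all genes did. Only Prtn3 without the 2 farthest cells (0.42) and S100a9 with genes detected held constant (0.40) stayed there.

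Cebpa had few counted correlations with granule genes in either class. In GMP it was negative with all 13 secondary and late genes (median -0.21, lowest -0.32 with Ltf, which was at 1.61 at most there). It was also negative with 9 of 10 primary genes, and it reached 0.4 in size with no gene of either list. Of all genes, 0.46% reached 0.4 and 0.18% reached -0.4. In Elane-high CD11b+ GMP-P cells Cebpa was positive with 9 of 10 primary genes (median 0.13), and its secondary median was -0.06. Of those primary genes Prss57 reached 0.4 (0.45), against 1.35% of all genes. Cebpb in GMP reached 0.4 with Gusb, a lysosomal enzyme (0.54), and with Irf8 (0.41), against 0.84% of all genes. The Irf8 value was between 0.35 and 0.39 in 5 alternatives. The highest Cebpb value in GMP was 7.48 TPM. In Elane-high CD11b+ GMP-P cells no granule gene reached 0.4 in size with Cebpb, where 0.331% of all genes reached 0.4 and 2.98% reached -0.4. Cebpg in that class had 0.55 with Hp, haptoglobin (Pearson's r 0.26), and -0.43 with Gfi1, against 1.27% of all genes at 0.4 and 3.26% at -0.4. The Gfi1 value was -0.29 without the 2 farthest cells. In GMP no granule gene reached 0.4 in size with Cebpg, where 0.32% of all genes reached 0.4 and 0.12% reached -0.4. The Cebpz medians with the secondary and late list were -0.01 in GMP and 0.21 in Elane-high CD11b+ GMP-P cells. No granule gene reached 0.4 in size with Cebpz in either class, where 0.3% of all genes in GMP and 1.15% in the other class reached 0.4, and 0.1% and 1.33% reached -0.4.

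The genes most like each member over all measured genes were named by rank of rho. For Cebpe in Elane-high CD11b+ GMP-P cells they were Pram1, an adaptor of myeloid cells (0.67), Serpinb1a (0.65), Ptgs1, cyclooxygenase 1 (0.62), Pglyrp1 (0.61) and S100a9 (0.58), and the lowest were Elf1, an ETS factor (-0.79), and Gnl3, nucleostemin (-0.78). In GMP they were Rab5b, B4galt6, Tmem170b, Serpinb1a and Znhit1 (0.54 to 0.48), with Tob2 (-0.56) and Ppp2r1a (-0.51) lowest. Serpinb1a was thus in the first 5 of Cebpe in both classes. For Cebpd in Elane-high CD11b+ GMP-P cells Jun, a bZIP factor of AP-1, ranked first (0.61). The first-ranked genes of the others were Nup205 (0.53), Gm12191 (0.58), Mrps16 (0.53), Ptpra (0.58) and Rreb1 (0.59) for Cebpa, Cebpb, Cebpd, Cebpg and Cebpz in GMP. For Cebpa, Cebpb, Cebpg and Cebpz in Elane-high CD11b+ GMP-P cells they were Ddx17 (0.57), Atp5h (0.54), Rcsd1 (0.62) and Rab11fip1 (0.58). A first rank among 3922 to 5000 genes reached 0.53 to 0.67 for every member, so the size alone does not set a gene apart.

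Genes that act with C/EBP factors were compared between the populations in the same way, where 2.45% of all genes tested were higher and 29.9% lower by 1 or more. Of 10 cytokine receptor genes all were measured, none was higher by 1 or more and 1 was lower, Kit (-2.75), the stem cell factor receptor that the sort used. Of 10 regulators of C/EBP proteins or their translation 6 were measured, and 1 was lower, Calr (calreticulin, -3.17), while Stat3, which acts downstream of the G-CSF receptor, differed by -0.67. The Tribbles genes Trib1 and Trib2, whose products direct C/EBP alpha to degradation, were under the filter, as was Trib3. Of 20 other bZIP genes 13 were measured, with none higher and 2 lower, Batf (-1.40) and Atf4 (-1.18), and Jun (0.07) and Fos (-0.61) within 1. Of 12 other myeloid transcription factors 11 were measured, with 2 higher, Id2 (3.31) and Spi1, which encodes PU.1 (2.14), and 5 lower, with Myc (-3.54) and Irf8 (-2.79) farthest. The medians of these 4 lists were -0.02, -0.50, -0.38 and -0.90, against -0.50 over all genes tested.

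A single CD11b+ GMP-P cell stood apart by 131255 summed TPM of basophil, mast cell and eosinophil markers, of which 128468 were Prg2, eosinophil major basic protein. Cebpe, which eosinophils also need, was at 45.71 TPM there, Cebpb at 6.74, and the other 4 members at 0. This cell was in the Elane-high class, with Camp at 6.25 TPM. Without it and the 3 Elane-low GMP cells, the Cebpe difference between the populations was 2.43. Without this cell alone, the median rho of Cebpe with the secondary and late list in the Elane-high class was 0.38.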

How the data were processed

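Expression was measured in 46 GMP and 45 CD11b+ GMP-P cells, captured on a Fluidigm C1 chip, with SMARTer cDNA, Nextera XT libraries and paired reads of 150 bp, per the labels' protocols. The authors deposited log2 values; after subtraction of a pseudocount of 1 on the linear scale each cell summed to between 999999 and 1000080, which identifies log2(TPM + 1). RSEM, without a version, and the build mm9 are named in the submitters' processing notes; the sources used here name no aligner or annotation. Because TPM carries no depth, the number of genes detected and the spread over cells stand in for precision; in all, 80.3% of values were 0. The highest correlation between 2 cells was 0.736. No cell was left out and no doublet caller was run.

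From these values, means, SDs, shares with exact Clopper-Pearson intervals (95%) and Spearman's rho were computed in Python 3.11.15 (pandas 2.3.3, NumPy 2.4.6, SciPy 1.17.1). A difference of 1 on the log2 scale was counted over the genes detected above 0 in 10% or more of the cells of GMP or CD11b+ GMP-P. The scripts were tested on simulated data. No p-value was made from cells. Populations came from the labels; their cells carry the numbers 1 to 48 and 49 to 96 and different identifiers, so capture or library and population cannot be told apart. The members and lists were chosen with earlier results of these data known. Of 144 list genes, 3 were found under an older symbol and Noc2l was not found. Named genes were the members, granule genes where their correlation with a member is described (at least the highest and lowest rho of a list), up to 4 genes of each other list with the largest differences, the highest-ranked and lowest-ranked rho of each member, Gfi1, Irf8 and the sorted surface genes. Stat3, Jun, Fos and the Tribbles genes, the markers Cd79b, Prg2 and Cpa3, and the genes that overlap a member were named outside that rule after their values were seen. Promoter sequences are from RefSeq (GRCm38.p6) and gene overlaps from GENCODE M21, whose build differs from that of the files, so neither was used to place the measured reads. Alternatives were pseudocounts of 0.1 and 10, ratios of mean TPM, 2 other scalings, restricted sets of cells, other floors and thresholds, Pearson's r and partial rho. Those on matched cells for correlations, on the cells with other markers and on the counts by Cebpe were added after the data were seen.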

Additional observations from a re-analysis of the deposited data

How the results depend on the processing

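No paired analysis was possible because the labels name no animals and each population counts as 1 sample. No result with a called value changed sign. The Cebpe difference between the populations stayed at 1.41 or more in 8 alternatives. Calls of size 1 were crossed for Cebpa with a pseudocount of 10 (-0.48) and with median of ratios scaling (-0.83). They were also crossed for Cebpa in the matched cells, which share a range of genes detected (-0.62), and in Elane-high cells alone (-0.78). For Cebpb they were crossed as a ratio of mean TPM (1.42). For Cebpg they were crossed with a pseudocount of 0.1 (-1.39), as a ratio (-1.19), in matched cells (-1.36) and in Elane-high cells (-1.06). For Cebpz they were crossed with a pseudocount of 10 (-0.68), with median of ratios scaling (-0.96) and in matched cells (-0.30). Between the Elane classes they were crossed for Cebpa as a ratio (-3.01) and with the threshold at 11 (-1.02), for Cebpe without the 50 highest genes (1.77) and with the threshold at 11 (1.28) or 7 (1.32), and as ratios for Cebpg (1.89) and Cebpz (-1.28). Counting values above 0, the Cebpd detection difference was 16.8 percentage points against 9.13 at 10 TPM. The Cebpe median with calprotectin was 0.42 in GMP without the 2 farthest cells, and 0.34 (partial) and 0.41 (matched cells) in Elane-high CD11b+ GMP-P, where the primary median was -0.41 without the cell of highest eosinophil markers. The causes were not tested. Of the alternative values of main results, 104 stayed within the spread over cells or genes and on the same side of the size counted, and 24 did not. The share of genes higher by 1 or more was 1.03% without a filter and 3.70% with one of 50%; that of lower genes was 12.5% and 51.8%. Dropout limits the co-detection counts, since TPM carries no depth.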
